A study of Mus musculus with 24 samples.

Results

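The genes described here are 10 immediate early genes and MAP kinase feedback genes, Fos, Fosb, Fosl1, Fosl2, Jun, Junb, Egr1, Ier3, Dusp1 and Myc. They were chosen by gene symbol, and every probe that the array annotation pairs with one of these symbols was taken. Of the 10 genes, 9 had a probe, with 13 probes in all among the 45281 on the array, and Fosl1 was not analysed here. The 9 genes each kept at least 1 probe in the filter on dim probes, as did 13325 genes in all. The series holds 24 expression arrays of mouse embryo fibroblasts (MEFs), which are connective tissue cells grown from mouse embryos, in 12 groups of 2 arrays. MEFs from Siah1a-/-::Siah2-/- (KO) mice carry deletions in the genes of the ubiquitin ligases Siah1a and Siah2, and MEFs from wild-type (WT) mice do not. KO and WT MEFs were kept for 12 h in oxygen deprivation (OD), glucose deprivation (GD) or their combination (OGD), were treated for 6 h with thapsigargin (TG) or tunicamycin (TM), or were labelled untreated. The methods name DMSO as the vehicle of both drugs, but whether the untreated cells of the arrays received it, and which TM dose the arrays had, is not given in the sources used here. TG blocks the pump that loads calcium into the endoplasmic reticulum (ER), and TM blocks N-linked glycosylation of proteins there, so that both cause ER stress. The labels give no time for the untreated cells, and neither the labels nor the methods say whether the duplicates came from separate embryos or cultures, so p-values measure only the spread between these samples.

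Immediate early genes are switched on within minutes of a growth factor or stress signal, without new protein synthesis, and their transcripts decay quickly. Fos, Fosb, Fosl2, Jun and Junb encode subunits of AP-1, a transcription factor that binds DNA as a dimer, and Egr1 and Myc encode transcription factors of other families. MAP kinases, such as ERK, JNK and p38, drive many of these genes through the serum response factor SRF and its partners at CArG boxes and through CREB and ATF proteins at cAMP response elements. Dusp1 encodes a phosphatase that removes phosphate from MAP kinases and so limits the signal that induced it, and Ier3 encodes a small stress protein that is itself a target of ERK. In fibroblasts these genes are known for the response to serum.

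Promoter windows of 4 members are shown as examples. Fos, Ier3 and Dusp1 had their highest group level in KO MEFs under OGD. Jun, Ier3 and Dusp1 had their lowest in KO MEFs under TM. Both also held for Junb, and Fosb and Egr1 were also highest in KO MEFs under OGD, but these genes are not shown. The windows run from 250 bases before to 50 bases after the annotated start. They are RefSeq sequence of build GRCm38.p6, written 5′ to 3′ on the strand of the gene. Capitals mark matches on either strand to TGACG (the core of a cAMP response element), TGACGTCA (the full element), TGACATCA (the Jun/ATF2 site known from the Jun gene) or ACGTG (the core of a hypoxia response element).
Fos, chr12:85473640-85473939, plus strand: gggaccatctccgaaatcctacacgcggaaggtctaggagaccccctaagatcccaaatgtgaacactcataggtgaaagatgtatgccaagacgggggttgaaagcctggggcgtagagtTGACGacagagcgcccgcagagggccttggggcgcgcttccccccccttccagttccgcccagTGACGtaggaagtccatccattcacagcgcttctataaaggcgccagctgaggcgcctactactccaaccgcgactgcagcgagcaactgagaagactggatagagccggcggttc
Jun, chr4:95052173-95052472, minus strand: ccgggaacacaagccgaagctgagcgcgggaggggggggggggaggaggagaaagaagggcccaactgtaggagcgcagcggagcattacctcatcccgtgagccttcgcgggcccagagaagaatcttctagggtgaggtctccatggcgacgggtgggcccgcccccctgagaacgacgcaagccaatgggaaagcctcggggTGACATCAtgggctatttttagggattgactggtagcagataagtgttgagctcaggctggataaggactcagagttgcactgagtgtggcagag
Ier3, chr17:35821463-35821762, plus strand: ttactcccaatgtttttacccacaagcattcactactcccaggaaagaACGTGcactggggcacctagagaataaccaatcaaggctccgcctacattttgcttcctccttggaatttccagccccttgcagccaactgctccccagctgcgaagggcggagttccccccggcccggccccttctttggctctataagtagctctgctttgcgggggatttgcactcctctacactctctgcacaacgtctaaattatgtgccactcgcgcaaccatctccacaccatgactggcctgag
Dusp1, chr17:26508423-26508722, minus strand: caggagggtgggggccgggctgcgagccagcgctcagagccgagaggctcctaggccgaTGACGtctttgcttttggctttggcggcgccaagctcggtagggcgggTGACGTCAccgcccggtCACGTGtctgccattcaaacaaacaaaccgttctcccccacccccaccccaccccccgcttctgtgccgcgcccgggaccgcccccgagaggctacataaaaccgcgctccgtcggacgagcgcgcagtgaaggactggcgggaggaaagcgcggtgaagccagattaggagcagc

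The RefSeq table held a window for 7 members. The full element TGACGTCA stood in the Dusp1 window alone among these 7, from 143 to 136 bases before the start, and in 1.79% of all 32851 windows. Its core TGACG was found in 4 of the 7 (Fos, Fosb, Junb and Dusp1), against 20.8% of all windows. In Fos the core lay at 129 to 125 and at 66 to 62 bases before the start. TGACATCA lay at 45 to 38 bases before the start of Jun and was present in 3.62% of all windows. ACGTG was found in 2 of the 7, Ier3 and Dusp1, against 19.6% of all windows, and in Dusp1 its matches on both strands overlapped. No CArG box and no AP-1 site (searched as TGANTCA, N being any base, either strand) lay in these 7 windows, against 1.63% and 7.81% of all windows. These matches describe the letters of the windows only. Sites more than 250 bases before the start were not searched, so a motif absent from a window may lie further away. In the same build Fos lies at chr12:85473890-85477274, Fosb at chr7:19302696-19310118, Fosl2 at chr5:32136472-32157840, Jun at chr4:95049036-95052222, Junb at chr8:84976909-84978748, Ier3 at chr17:35821713-35822911, Dusp1 at chr17:26505591-26508472 and Myc at chr15:61985341-61990361.

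Values are the intensities that the authors normalized, tested as log2. Probes that exceeded 233, taken as the upper end of background, on 1 array or more were kept, which left 26483 probes, 12 of the 13 member probes among them. A gene with several kept probes is represented by the brightest of them. A change was called at an adjusted p under 0.05 (limma, Benjamini-Hochberg over all kept probes) and a fold change of at least 2, and log2 fold changes are given ± SE. Siah1a was lower in KO than in WT MEFs in all 6 conditions, by log2 fold changes of -2.35 to -2.9 outside TM and at least 7.16-fold under TM, where KO MEFs were not above background (limma adjusted p of 1.63e-07 or less). Siah2 was called lower in KO MEFs in 3 of the 6 conditions, by -1.12 in untreated cells, -1.64 under TG and -1.95 under TM (adjusted p = 0.0375, 0.00198 and 0.000402), and with a replicate block, described below, also by -1.04 under GD (adjusted p = 0.0549, and 0.000336 with the block). The Siah2 probe was above background on every KO array, with 239 to 718, did not pass for KO against WT under OD (-0.40, adjusted p = 0.623) or OGD (-0.65, adjusted p = 0.215), and was called higher in KO MEFs under TG than in untreated KO MEFs (1.01, adjusted p = 0.0417). Where this probe lies relative to the deleted part is not given in the sources used here. At least 6 of 8 fibroblast markers were above background in every group. Of the markers of other cell types, 0 to 2 of 5 epithelial, 0 to 1 of 5 endothelial, 0 to 1 of 3 measured blood and macrophage, 0 to 2 of 5 muscle and 2 to 3 of 5 neural ones were above background on both arrays of a group. Epcam, Pecam1, Tie1, Adgre1, Actc1, Myod1, Gfap and Tubb3 were not above it on any array. The summed intensity of the 5 neural markers was 3004 to 3524 in KO MEFs under TG and TM and 4696 to 5299 in untreated KO MEFs, and 3942 to 4766 in WT MEFs under TG and TM and 5105 to 7233 in untreated WT MEFs. Between genotypes, the fibroblast marker Thy1 was called higher and the neural marker Sox2 lower in KO than in WT MEFs in all 6 conditions, and the fibroblast marker S100a4 was called lower in KO MEFs in untreated cells, OD, GD and TG (-1.46 to -1.54). The part of these in the results below was not tested. In a bulk sample, fewer cells that express a gene and less RNA per cell cannot be told apart.

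The duplicates of several members differed widely, and this spread decides many of the calls below. Ier3 had 26778 in replicate 1 and 6759 in replicate 2 of untreated KO MEFs, and 16038 in replicate 1 and 2937 in replicate 2 of untreated WT MEFs. Replicate 1 of Ier3 was the higher one in 11 of 12 groups, and replicate 1 of Jun was the higher one in all 12. Junb went the other way, with the higher value in replicate 2 in 11 of 12 groups. Fitted over all groups, Ier3 was 1.32 ± 0.27 log2 units higher in replicate 1 (limma adjusted p = 0.00163) and Jun 0.93 ± 0.09 higher (adjusted p = 3.99e-06), while Egr1 differed by -0.04 ± 0.10. Ier3 was the only member past 2-fold in this comparison, in which 0.695% of kept probes were called. The median difference between duplicates was 1.5 log2 units for Ier3 and 0.92 for Jun, against 0.184 for the median kept probe. These differences were smaller in the 6 h groups: for Ier3 the median was 0.18 under TG and TM and 1.98 in the other groups. Since the replicate number marks a shared shift, a fit with the replicate number as a block was run beside the fit of group means, and its values are given wherever it changes the call of a member. The block takes 1 shift per probe for all groups. It is therefore only approximate where the duplicates differed less under TG and TM than elsewhere, as for Ier3 and Dusp1. The duplicates of WT OGD were the least alike over all kept probes, with r = 0.955 and 8.58% of probes at least 2-fold apart, against 0.0453% to 4.18% in the other groups.

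**Figure D1:**
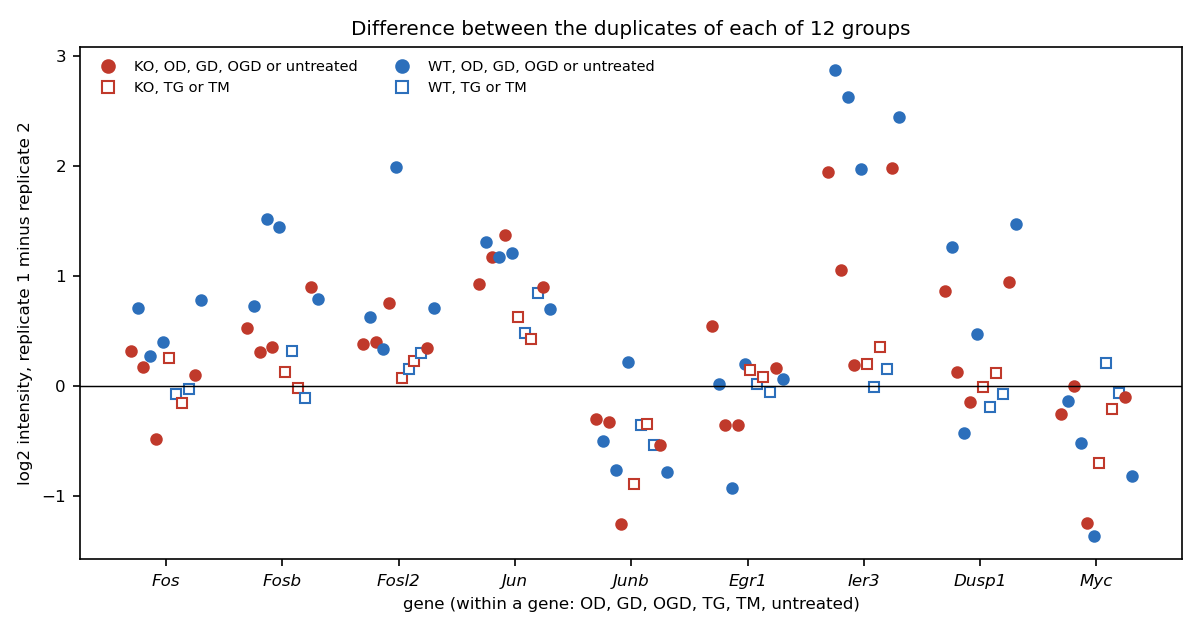
Log2 intensity of replicate 1 minus replicate 2 (y axis) for each of 9 genes (x axis) in the 12 groups, with KO in red and WT in blue, filled circles for OD, GD, OGD and untreated cells and open squares for TG and TM. All 12 points of Jun lie above 0 and 11 of 12 of Junb below it, and the points of Ier3 reach the largest differences outside TG and TM.

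By the array names that the study prints, one pair of BeadChips carried all untreated and GD samples together with the OD and OGD samples of WT MEFs. Another pair carried all TG and TM samples together with the OD and OGD samples of KO MEFs, and the duplicates of a group lay on different chips. For TG and TM against untreated cells, for OD and OGD against untreated KO cells, and for KO against WT in OD and OGD, chip and condition cannot be told apart. KO against WT under TG, TM or GD or untreated, OD, GD and OGD against untreated WT cells, TM against TG, and OGD against OD within a genotype compare arrays of the same chips.

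**Figure D2:**
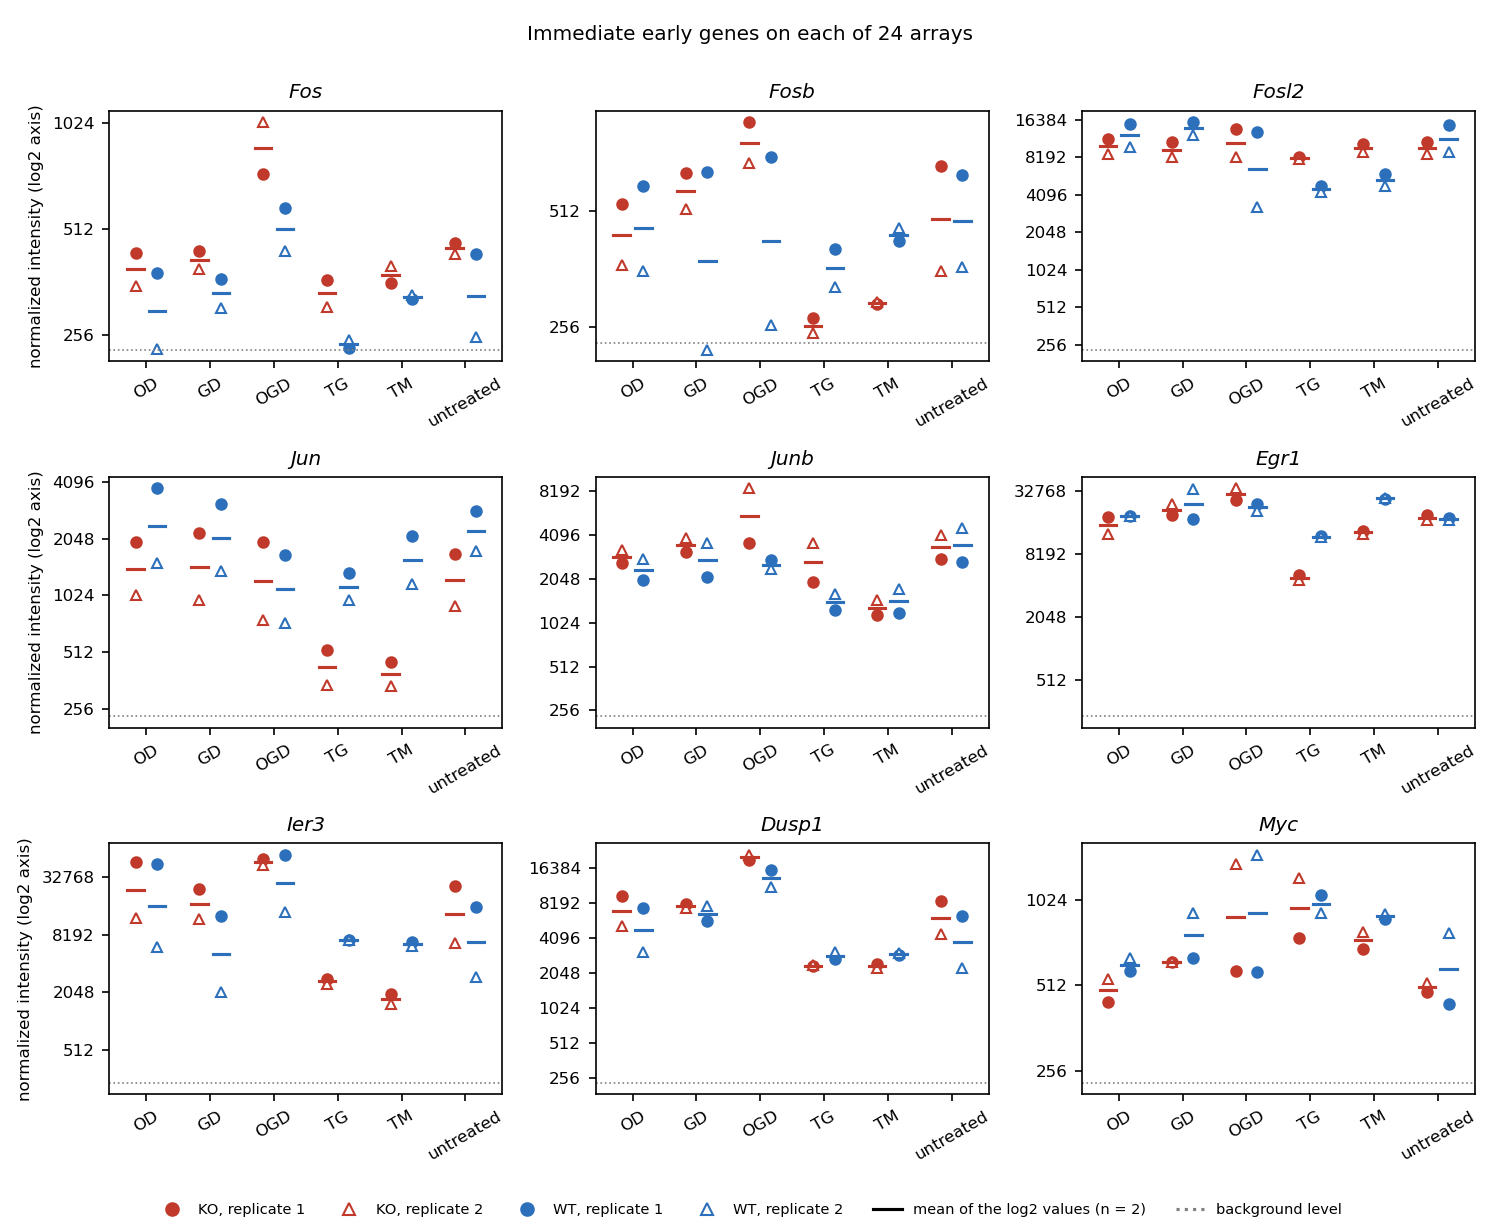
Normalized intensity (log2 axis) of the brightest probe of 9 genes on each of 24 arrays, by condition, with KO in red left of WT in blue, replicate 1 as filled circles, replicate 2 as open triangles, and lines at the mean of the log2 values (n = 2). Dusp1 reaches 19273 and 21340 in KO OGD, and Egr1 falls to 5164 and 4661 in KO TG, below every other array.

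To ask how ER stress changed these genes, TG and TM were compared with untreated cells in each genotype. In KO MEFs under TG, 1 of 9 members was called, Egr1, and it was lower (4.07% of kept probes were called in either direction). With the replicate block 4 members were called, all lower: Jun, Egr1, Ier3 and Dusp1 (5.11% of kept probes). On 7 of 9 members both KO TG arrays lay below both untreated KO arrays, as did 27.2% of kept probes, and only Myc lay above. In KO MEFs under TM none of the 9 was called (2.37%), and with the block Jun, Junb, Ier3 and Dusp1 were, all lower (3.43%). Both KO TM arrays lay below both untreated arrays on 7 members, as did 25.9% of kept probes. In WT MEFs no member was called under TG (2.96%) or TM (1.89%). Both WT TG arrays lay below both untreated WT arrays on 5 members (23.8% of kept probes) and above on 1 (24.2%). For WT TM the counts were 2 below (22% of kept probes) and 2 above (21.3%). With the block Fosl2 and Junb were called lower in WT MEFs under both agents (3.77% for TG and 2.56% for TM). The median log2 fold change of the 9 members was -0.92 in KO MEFs under TG and -0.72 under TM, and -0.46 in WT MEFs under TG and -0.12 under TM, against -0.01 to 0 over all kept probes.

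Egr1 encodes a zinc finger transcription factor that rises within an hour of serum or stress. It had 5164 and 4661 in KO MEFs under TG, 13733 and 12963 in KO MEFs under TM, and 19444 and 17394 in untreated KO MEFs. In WT MEFs it had 12187 and 12052 under TG, 27566 and 28580 under TM, and 18231 and 17421 in untreated cells. The duplicates were close, and the groups of each genotype did not overlap with each other. Under TG Egr1 fell in KO MEFs by 1.91 ± 0.24 on the log2 scale, 3.75-fold, against untreated KO MEFs (adjusted p = 9.44e-05). In WT MEFs the difference under TG was -0.56 ± 0.24 (adjusted p = 0.225). Under TM the differences were -0.46 ± 0.24 in KO MEFs (adjusted p = 0.351) and 0.66 ± 0.24 in WT MEFs (adjusted p = 0.187), neither past the threshold.

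Set against WT MEFs on the same chips, Egr1 was 2.47-fold lower in KO MEFs under TG (-1.30 ± 0.24, adjusted p = 0.00234) and 2.10-fold lower under TM (-1.07 ± 0.24, adjusted p = 0.00896). In untreated cells the genotypes differed by 0.05 ± 0.24 (adjusted p = 0.984) and their arrays overlapped. The difference of the KO and the WT response was -1.35 ± 0.34 for TG (limma adjusted p = 0.125) and -1.12 ± 0.34 for TM (adjusted p = 0.261), and neither passed. TM against TG was 2.72-fold higher in KO MEFs (1.44 ± 0.24, adjusted p = 0.00941) and 2.32-fold higher in WT MEFs (1.21 ± 0.24, adjusted p = 0.143), of which the WT difference did not pass. Both Egr1 calls in KO MEFs under TG, against untreated and against WT MEFs, kept their side of the threshold under every alternative run. The KO against WT call under TM was lost without any 1 of its 4 arrays (adjusted p = 0.0537 to 0.0725), and so was the TM against TG call in KO MEFs (0.0959 to 0.123). In the order of its 12 group levels, KO TG was the lowest, WT TG and KO TM followed, and these 3 did not overlap with one another.

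Jun, a central subunit of AP-1 and the target of JNK, had 526 and 341 in KO MEFs under TG, 453 and 337 under TM, and 1693 and 904 in untreated KO MEFs. WT MEFs had 1344 and 964 under TG, 2128 and 1184 under TM, and 2893 and 1774 untreated. The 4 KO arrays under TG and TM lay below every other array of the series. In KO MEFs the log2 differences from untreated cells were -1.55 ± 0.62 under TG and -1.66 ± 0.62 under TM (adjusted p = 0.15 and 0.158). With the block the SE was 0.21, and both passed (adjusted p = 0.00011 and 0.00012). Against WT MEFs Jun was 2.69-fold lower in KO MEFs under TG (-1.43, adjusted p = 0.221, and 0.000232 with the block) and 4.06-fold lower under TM (-2.02, adjusted p = 0.0577, and 5.99e-06 with the block). The genotypes differed before stress as well: untreated KO MEFs were 0.87 lower on the log2 scale than untreated WT MEFs (1.83-fold, adjusted p = 0.656, and 0.0158 with the block), under the 2-fold threshold.

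Junb, an AP-1 subunit that can oppose Jun, had 1148 and 1461 in KO MEFs under TM, 1952 and 3616 under TG, and 2816 and 4080 in untreated KO MEFs. In WT MEFs it had 1203 and 1746 under TM, 1252 and 1603 under TG, and 2663 and 4588 untreated. TM gave low values in both genotypes, and TG gave low values in WT MEFs, with the KO TG arrays overlapping untreated KO cells. The log2 differences from untreated cells were -1.39 for KO TM, -1.27 for WT TM and -1.30 for WT TG (SE 0.41, adjusted p = 0.0679, 0.119 and 0.076), and each was called with the block (adjusted p = 0.00129, 0.00294 and 0.00166). KO TG differed from untreated by -0.35 (adjusted p = 0.727), and TM against TG in KO MEFs by -1.04 (adjusted p = 0.46, and 0.0385 with the block). A probe of Junb against another transcript record was above background on 1 of 24 arrays.

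Ier3 had 2850 and 2482 in KO MEFs under TG, 1970 and 1545 under TM, and 26778 and 6759 untreated. In WT MEFs it had 7242 and 7296 under TG, 6924 and 6222 under TM, and 16038 and 2937 untreated. The KO arrays under both agents lay below untreated KO cells and below the WT arrays of the same agent, whereas the WT arrays overlapped untreated WT cells. Against untreated KO MEFs the differences were -2.34 ± 1.06 for TG and -2.95 ± 1.06 for TM on the log2 scale, 5.06-fold and 7.71-fold (adjusted p = 0.216 and 0.141). With the block they were called, with an SE of 0.65 (adjusted p = 0.0225 and 0.00843). These block calls assume the same replicate shift in all groups, whereas the median duplicate difference of Ier3 was 0.18 under TG and TM and 1.98 elsewhere. KO against WT was -1.45 under TG and -1.91 under TM, neither of which passed in either fit (adjusted p with the block = 0.187 and 0.0668).

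Dusp1 had 2370 and 2378 in KO MEFs under TG, 2449 and 2251 under TM, and 8480 and 4398 untreated. WT MEFs had 2708 and 3100 under TG, 2911 and 3069 under TM, and 6286 and 2266 untreated. The 4 KO arrays under these agents lay below the 4 WT ones, by 0.29 and 0.35 log2 units on average, which did not pass in either fit. In KO MEFs Dusp1 differed from untreated cells by -1.36 ± 0.45 under TG and -1.38 ± 0.45 under TM (adjusted p = 0.0717 and 0.0979, and 0.0216 and 0.0282 with the block). These block calls too assume 1 replicate shift, whereas the median duplicate difference of Dusp1 was 0.1 under TG and TM and 0.67 elsewhere. The shift itself, 0.37 ± 0.15, did not pass (limma adjusted p = 0.0875), and replicate 1 was the higher one in 7 of 12 groups.

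**Figure D3:**
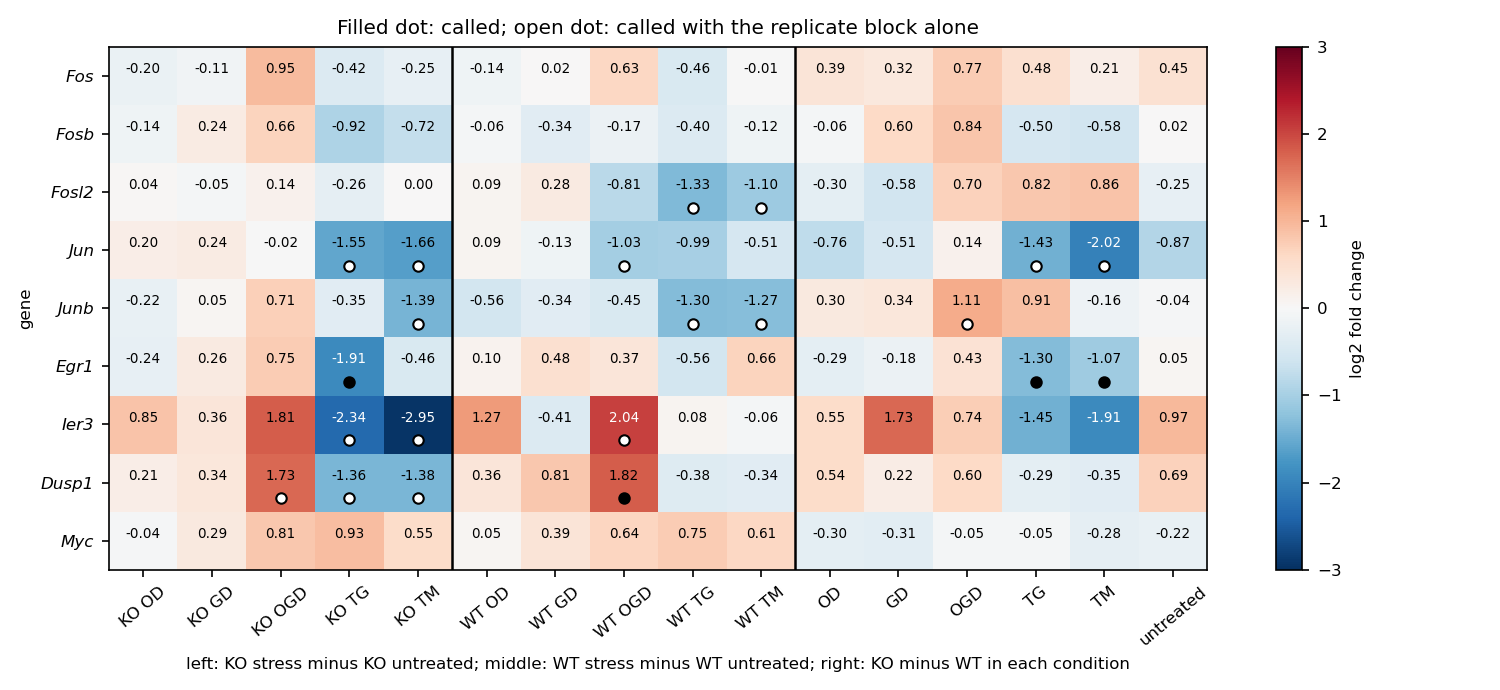
Log2 fold changes (colour and number) of 9 genes (rows) for the stresses against untreated cells in KO (left block) and WT MEFs (middle block) and for KO against WT in each condition (right block), with filled dots for calls and open dots for calls made with the replicate block alone. TG and TM columns of KO MEFs are blue for most genes, from -2.95 for Ier3 under TM, and the OGD columns carry the largest positive values, 2.04 for Ier3 and 1.82 for Dusp1 in WT MEFs.

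Combined loss of oxygen and glucose gave the highest group level of 6 members, Fos, Fosb, Junb, Egr1, Ier3 and Dusp1, in KO MEFs. In WT MEFs under OGD, Dusp1 was called higher against untreated cells (3.73% of kept probes were called in either direction). With the replicate block Dusp1 and Ier3 were called higher and Jun lower (4.76%). In KO MEFs under OGD no member was called (1.02%) and Dusp1 was called higher with the block (1.67%). On 6 of 9 members, Fos, Fosb, Egr1, Ier3, Dusp1 and Myc, both KO OGD arrays lay above both untreated KO arrays, as did 19.4% of kept probes. In WT MEFs both OGD arrays lay above both untreated arrays on 3 members (19.5% of kept probes) and below on 1 (21.6%). The members' median log2 fold change was 0.75 in KO MEFs and 0.37 in WT MEFs, against -0.01 over all kept probes in both.

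Dusp1 had 19273 and 21340 in KO MEFs under OGD and 8480 and 4398 in untreated KO MEFs. WT MEFs had 15705 and 11330 under OGD and 6286 and 2266 untreated. OGD was the highest condition in both genotypes, and its arrays overlapped with no other group. The rise in WT MEFs was 3.53-fold (1.82 ± 0.45, adjusted p = 0.0198), and the difference in KO MEFs was 3.32-fold (1.73 ± 0.45, adjusted p = 0.0663, and 0.0168 with the block). The KO and the WT response to OGD differed by -0.09 ± 0.63 log2 units (limma adjusted p = 0.999). The call in WT MEFs was lost without replicate 2 of the untreated WT cells (1.09, adjusted p = 0.244) or without replicate 1 of the OGD cells (1.59, adjusted p = 0.0759). It was also lost with array weights (adjusted p = 0.098) and in a fit of only the 4 arrays compared (adjusted p = 0.371).

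To separate glucose loss from oxygen loss, OGD was compared with OD, on the same chips within each genotype. Dusp1 had 9505 and 5224 in KO MEFs under OD and 7495 and 3126 in WT MEFs under OD. No member was called in KO MEFs for OGD against OD (0.298%), and Fos and Dusp1 were called higher with the block (0.846%). Both KO OGD arrays lay above both KO OD arrays on 6 of 9 members, as did 18.5% of kept probes. In WT MEFs no member was called for OGD against OD (3.04%), and with the block Dusp1 was called higher and Jun lower (4.08%). Both WT OGD arrays lay above both WT OD arrays on 3 members (19.7% of kept probes) and below on 0 (20.7%). The Dusp1 differences were 1.53 ± 0.45 in KO MEFs (adjusted p = 0.155, and 0.047 with the block) and 1.46 ± 0.45 in WT MEFs (adjusted p = 0.063, and 0.0182 with the block).

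Fos, the founding partner of Jun in AP-1, was dim throughout, between 235 and 1034. It had 738 and 1034 in KO MEFs under OGD, 440 and 354 under OD, and 469 and 437 untreated. WT MEFs had 590 and 446 under OGD, 385 and 235 under OD, and 435 and 253 untreated. KO OGD was the highest group and overlapped with none. Fos was 2.22-fold higher in KO MEFs under OGD than under OD (1.15 ± 0.26, adjusted p = 0.0675, and 0.0192 with the block). Against untreated KO MEFs it was 1.93-fold higher (0.95 ± 0.26, adjusted p = 0.0822, and 0.0281 with the block), which is under 2-fold. Both WT TG arrays, 236 and 248, lay within a few units of the background level, so a lower level there would not have been detectable.

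Ier3 had 50574 and 44188 in KO MEFs under OGD and 26778 and 6759 untreated, and 56090 and 14284 in WT MEFs under OGD and 16038 and 2937 untreated. In each replicate the OGD array was the higher one, by 1.81 log2 units on average in KO and 2.04 in WT MEFs. The group means did not differ past the threshold (adjusted p = 0.544 in KO and 0.289 in WT MEFs), and with the block the rise in WT MEFs passed (adjusted p = 0.0455) and that in KO MEFs did not (0.137). Under OD Ier3 had 47489 and 12352 in KO MEFs and 44756 and 6112 in WT MEFs, overlapping both OGD and untreated cells.

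Junb had 3600 and 8578 in KO MEFs under OGD, against 2764 and 2383 in WT MEFs under OGD. KO MEFs were higher by 1.11 ± 0.41 (2.17-fold, adjusted p = 0.117, and 0.00425 with the block), where chip and genotype cannot be told apart. Jun had 1964 and 759 in KO MEFs under OGD, on either side of the untreated KO arrays, and 1689 and 731 in WT MEFs, below untreated WT cells. Its difference in WT MEFs was -1.03 ± 0.62 against untreated cells (adjusted p = 0.379, and 0.00418 with the block) and -1.12 against OD (adjusted p = 0.344, and 0.00326 with the block). Egr1 had 27446 and 35045 in KO MEFs under OGD, above the 19444 and 17394 of untreated KO MEFs, a difference of 0.75 ± 0.24 (adjusted p = 0.146). Dusp1, Fos and Egr1 each had their highest group level in KO OGD, and Jun had its highest in WT OD.

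The probes of Fosl2, an AP-1 subunit that accumulates later than Fos, disagreed under OGD. The bright probe ILMN_1252481 had 13857 and 8184 in KO MEFs under OGD and 10909 and 8608 untreated, and 13137 and 3290 in WT MEFs under OGD and 14743 and 9020 untreated. It did not differ past the threshold in either genotype (0.14 in KO, adjusted p = 0.959, and -0.81 in WT, adjusted p = 0.34). The dim probe ILMN_2768924 had 288 and 1098 in KO MEFs under OGD and 194 and 231 untreated, and 1098 and 3245 in WT MEFs under OGD and 220 and 210 untreated. Outside OGD it lay between 178 and 317. It was at least 8.10-fold higher in WT MEFs under OGD, a bound that counts untreated cells at the background level (adjusted p = 0.00113). KO MEFs under OGD were lower than WT MEFs under OGD on this probe by 1.75 ± 0.48 log2 units (adjusted p = 0.0332), with overlapping arrays. The third probe, ILMN_2718801, had 205 and 455 in KO MEFs under OGD and 473 and 1007 in WT MEFs under OGD, with 234 and 221 in untreated WT cells. It was called higher in WT MEFs under OGD (1.60 ± 0.30, adjusted p = 0.00471) and lower in KO than in WT MEFs under OGD (-1.17 ± 0.30, adjusted p = 0.0243). Both KO against WT calls were lost without replicate 1 of KO OGD (adjusted p = 0.436 for ILMN_2768924 and 0.347 for ILMN_2718801) or replicate 2 of WT OGD (0.335 and 0.281). The WT OGD call of ILMN_2718801 was lost without replicate 2 of WT OGD (1.06, adjusted p = 0.0556). All 4 of these calls were lost in a fit of only the arrays compared (adjusted p = 0.282 to 0.587). The dim probes were above background on 11 and 13 of 24 arrays, and outside OGD they reached at most 317 and 254.

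Krt19, an epithelial keratin, had 7081 and 1230 in WT MEFs under OGD, 5133 and 974 under OD, and 502 and 247 untreated, and it was called higher under OGD (3.07 ± 0.71, adjusted p = 0.0148). In OGD and OD it made up most of the summed intensity of 5 epithelial markers, which was 2053 to 7833 in WT OGD, 1725 to 5932 in WT OD and 1087 to 1304 in untreated WT cells. The median log2 fold change of the 4 epithelial markers with a kept probe was -0.08 in WT OGD, and no other was called. Under OD, where Krt19 was also high, the dim Fosl2 probes lay between 205 and 237 in WT MEFs. A relation between Krt19 and the dim Fosl2 probes was not tested.

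**Figure D4:**
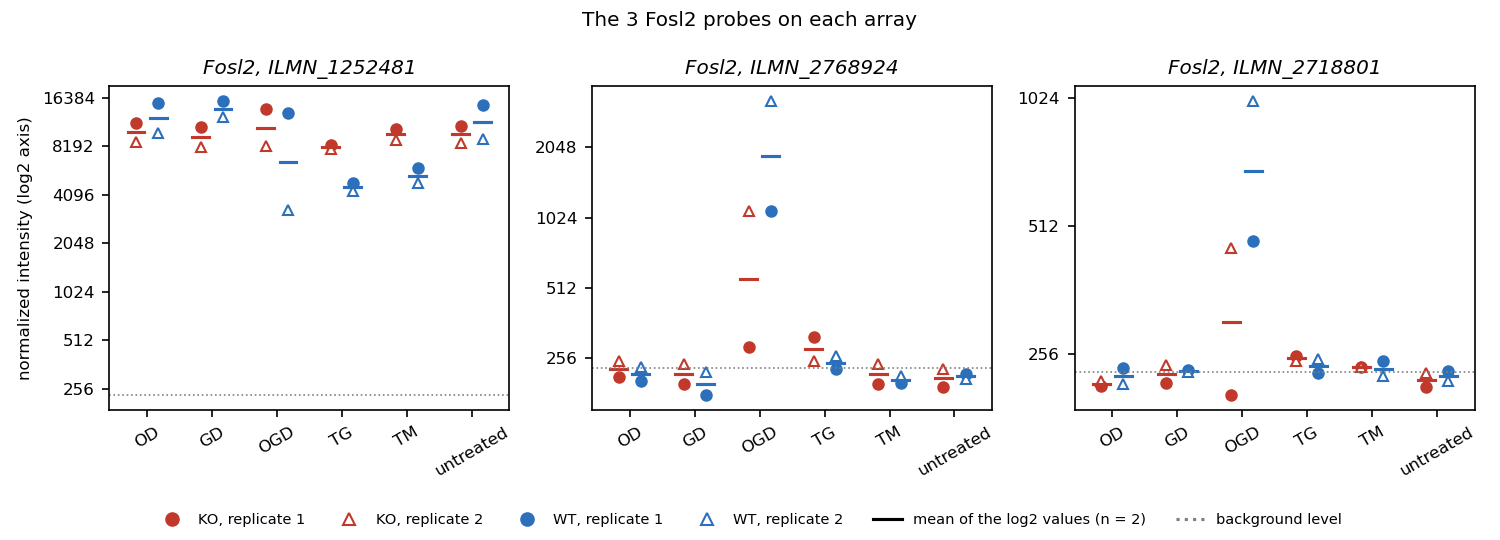
Normalized intensity (log2 axis) of the 3 Fosl2 probes on each of 24 arrays by condition, with KO in red left of WT in blue and a dotted line at the background level of 233. The bright probe spans 3290 to 15683 with OGD and untreated arrays overlapping, and both dim probes leave the background by the widest margin in OGD, up to 3245 and 1007 in WT MEFs.

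Under TG and TM the bright Fosl2 probe had 8277 and 7878 in KO MEFs under TG, just below the untreated KO arrays, and 10499 and 8972 under TM, between them. In WT MEFs it had 4835 and 4335 under TG and 5958 and 4827 under TM, below all untreated WT values. The WT differences were -1.33 ± 0.46 for TG and -1.10 ± 0.46 for TM (adjusted p = 0.109 and 0.275, and 0.0109 and 0.0445 with the block). KO against WT was 0.82 under TG and 0.86 under TM, with no overlap of the arrays, and did not pass in either fit (adjusted p with the block = 0.111 and 0.0884).

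Fosb, another Fos family subunit, lay between 224 and 868. It had 270 and 247 in KO MEFs under TG and 294 and 298 under TM, below untreated KO MEFs with 667 and 357, by -0.92 and -0.72 log2 units (adjusted p = 0.307 and 0.525). WT MEFs had 407 and 326 under TG and 427 and 461 under TM, overlapping the 633 and 366 of untreated WT MEFs. Myc, the growth regulator, lay between 441 and 1471. It had 751 and 1220 in KO MEFs under TG and 487 and 521 untreated, and 1063 and 921 in WT MEFs under TG and 441 and 780 untreated. All 4 TG arrays lay above the untreated arrays of their genotype, by 0.93 ± 0.41 in KO (adjusted p = 0.209) and 0.75 ± 0.41 in WT MEFs (adjusted p = 0.398). The TM arrays of Myc, 685 and 791 in KO and 875 and 913 in WT MEFs, also lay above the untreated arrays of their genotype. Another Myc probe was below background on all 24 arrays.

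Oxygen or glucose deprivation on its own gave no member call. Of 9 members, 0 were called under OD in KO (0.211% of kept probes called) or WT MEFs (0.196%), and 0 under GD in either genotype (0.00755% in each). The replicate block called none either. At an unadjusted p under 0.05 with a 2-fold change, 0 members passed under OD or GD. Over all 5 stresses 9 of 45 pairs of member and stress passed this looser threshold in KO MEFs, against 2.24% of all pairs of kept probe and stress, and 5 of 45 in WT MEFs, against 2.42%. The widest OD difference was that of Ier3, 1.27 ± 1.06 in WT MEFs (adjusted p = 1), and the widest GD difference was that of Dusp1, 0.81 ± 0.45 in WT MEFs (adjusted p = 1).

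Between genotypes, over 9 members and 6 conditions, 2 calls were made, both of Egr1, in TG (3.83% of kept probes) and TM (4.27%). None of the 9 was called in untreated cells (2.79%), OD (2.91%), GD (2.71%) or OGD (3.90%). With the block Jun was added under TG (4.53%) and TM (5.09%), and Junb under OGD (4.81%). The difference of the KO and the WT response was called for no member in any of the 5 stresses, where 0% of kept probes were called for OD and GD, 0.0151% for OGD, 0.362% for TG and 0.449% for TM, and the block called none. For TM against TG, Egr1 was called in KO MEFs (0.298%), Junb was added with the block (0.487%), and none was called in WT MEFs (0.0151%). At the unadjusted threshold with a 2-fold change, 5 of 54 member pairs passed for KO against WT (4.28% of all pairs of kept probe and comparison), 2 of 45 for the difference of the responses (1.07%) and 6 of 36 for TM against TG and OGD against OD (1.64%).

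Other phosphatases of the Dusp family, which act on MAP kinases, were taken as a list of 10 genes with 9 measured. In KO MEFs 3 of the 9 were called lower under TG and under TM and none higher (4.07% and 2.37% of kept probes were called), and the list's median log2 fold change was -0.65 and -0.61, against -0.01 and 0 over all kept probes. In WT MEFs 1 was called lower under each agent, Dusp10 (2.96% and 1.89% of kept probes), and the medians were 0.06 and 0.15. The block left these counts as they were, and raised the count of phosphatases whose responses differed between genotypes to 2 for TG, against 0, and to 3 for TM, against 1. Over all 26483 kept probes the block raised the count of such differences from 96 to 234 for TG and from 119 to 252 for TM. The 3 genes in KO MEFs were Dusp4, Dusp5 and Dusp6, phosphatases that act on ERK and that ERK signalling itself induces.

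Dusp6 had 2037 and 2933 in KO MEFs under TG, 1570 and 2193 under TM, and 14178 and 9565 untreated. WT MEFs had 9118 and 13609 under TG, 11298 and 18066 under TM, and 9279 and 5958 untreated. The KO arrays under both agents lay below all others. The log2 fold change of Dusp6 in KO MEFs was -2.25 ± 0.42 under TG and -2.65 ± 0.42 under TM (adjusted p = 0.00273 and 0.00156), and KO minus WT was -2.19 under TG and -2.94 under TM (adjusted p = 0.00359 and 0.000255). Its KO and WT responses to TM differed by -3.59 ± 0.59 (adjusted p = 0.0136). Dusp5 changed in KO MEFs by -2.17 ± 0.47 under TG and -2.23 ± 0.47 under TM (adjusted p = 0.0078 and 0.0113). Dusp4 changed by -2.62 ± 0.69 and -3.19 ± 0.69 (adjusted p = 0.026 and 0.0134), with 319 and 321 under TG and 194 and 240 under TM, where 1 of 2 arrays was above background, against 3245 and 1195 in untreated KO MEFs.

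**Figure D5:**
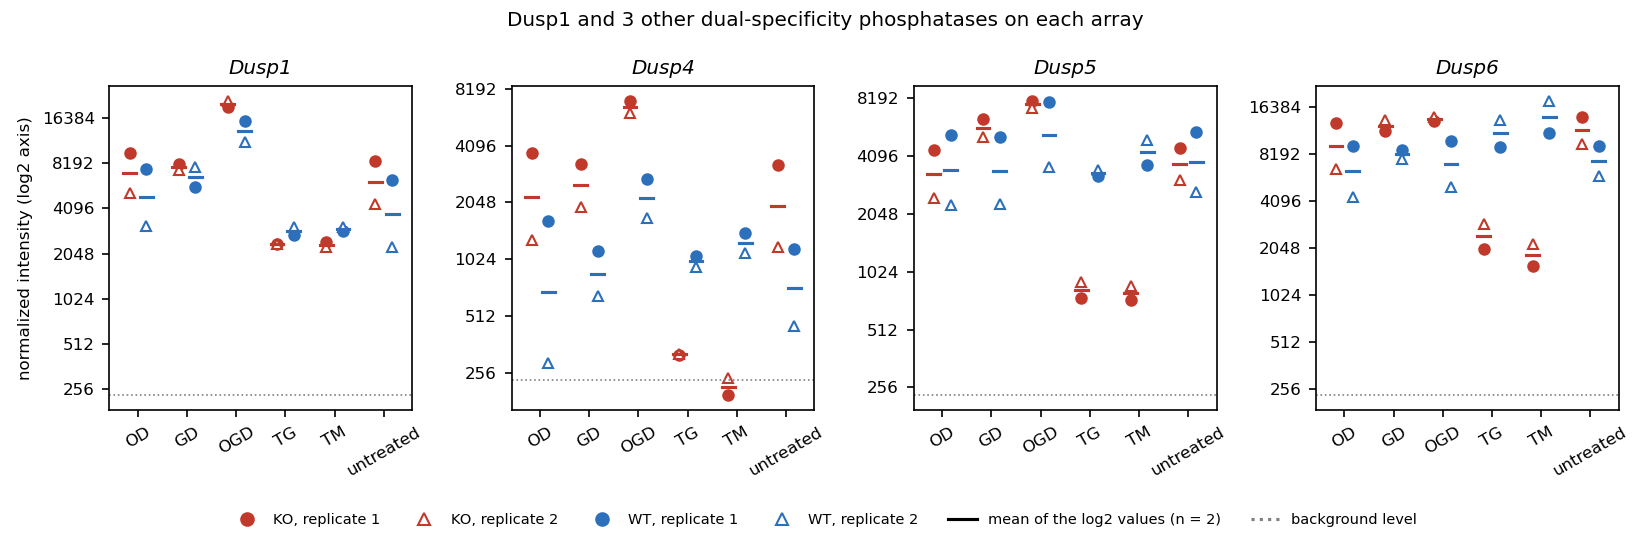
Normalized intensity (log2 axis) of Dusp1 and of Dusp4, Dusp5 and Dusp6 on each of 24 arrays by condition, with KO in red left of WT in blue and a dotted line at the background level of 233. In KO MEFs all 4 genes are lowest under TG and TM, where Dusp6 lies between 1570 and 2933, and in WT MEFs under these agents Dusp6 lies between 9118 and 18066.

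Of the AP-1 partners, 8 of 9 were measured. Atf3, a stress-induced partner of Jun, was called higher under TG and TM in both genotypes, with 2810 and 3356 in KO TG, 981 and 1026 in KO TM, 2743 and 2787 in WT TG and 1945 and 2045 in WT TM, against 201 and 236 in untreated KO and 196 and 190 in untreated WT MEFs. In KO MEFs under TG it lay above untreated cells, where Egr1 lay below. Jdp2, a repressor that dimerizes with Jun, was called higher in KO TG, KO TM, WT TM and WT OGD (1.14 to 1.48). Maff, a small Maf protein, was called higher under OGD in KO (1.9 ± 0.34, adjusted p = 0.00747) and WT MEFs (2.02 ± 0.34, adjusted p = 0.002), as was Dusp1 in WT MEFs. Of 8 other immediate early transcription factors measured, Egr3 was called lower in KO TG (-1.58), WT TG (-2.11) and WT OGD (-2.23, with 1303 and 347 in its duplicates), Klf4 higher in KO TG (1.88) and Csrnp1 higher in WT OGD (1.95).

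Among 11 other immediate early effectors, 4 were called lower and 1 higher in KO TG, 3 lower in KO TM, 3 lower in WT TG and 1 lower in WT TM, where 4.07%, 2.37%, 2.96% and 1.89% of kept probes were called. With the block the KO TG counts were the same, and 4 were lower in KO TM, 4 lower and 1 higher in WT TG and 2 lower in WT TM. Ccn2, a matricellular growth factor, changed by -3.89 ± 0.57 in KO TG and by -4 ± 0.57 in KO TM (adjusted p = 0.000392 and 0.000684). It was not called in WT TG or WT TM. Its WT arrays under TG (13398 and 13251) and TM (17278 and 21060) nevertheless lay below the untreated ones (60567 and 29904). Errfi1, an inhibitor of the EGF receptor, was called lower in all 4 of these groups, by log2 fold changes of -1.12 to -1.69. Plk2, a kinase, was higher in KO TG (1.32). Of 15 MAP kinases and their kinases, Map2k1, which activates ERK, was called higher in KO OD (1.25), KO OGD (1.5) and WT OGD (1.29). Map2k3, which activates p38, was called lower in KO TG (-1.48) and KO TM (-1.40). In WT MEFs Map2k3 was not called, but had 9800 and 8748 under TG, 9905 and 11815 under TM, and 21706 and 14946 untreated. Mapk14 was called lower in WT TG and WT TM, and not in KO TG or KO TM. Mapk12, a p38 kinase, was called higher in KO than in WT MEFs in all 6 conditions, by at least 3.76-fold, since WT MEFs were not above background. Of 5 SRF and ternary complex factors, Srf was called lower in WT TG (-1.25). Of 5 Sprouty and Spred inhibitors, Spry3 was called lower in KO than in WT MEFs under TG (-1.45) and TM (-1.60), and Spred2 lower under OGD (-1.07). Spry3 was called higher in WT TG than in untreated WT MEFs (1.46, adjusted p = 0.0338). In KO MEFs it had 427 and 409 untreated, 703 and 471 under TG, and 527 and 455 under TM. Of 9 MYC partners, Mxi1 was called higher in KO OD (1.42), KO OGD (2.02) and WT OGD (1.64), Mxd4 higher in KO TM (1.76) and Mycl higher in KO than in WT MEFs under OGD (2.18).

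Across the 24 arrays, the genes whose levels followed a member most closely are given by Pearson's r, with no test, since the arrays share groups, chips and replicate numbers. Dusp1 was nearest to Vopp1 (0.924), Maff (0.923) and Uck2 (0.917), Ier3 to Tnfsf9 (0.927), Tm4sf1 (0.906) and Dusp4 (0.902), and Jun to Dnaaf2 (0.942), Dcbld2 (0.929) and Nes (0.924). Egr1 was nearest to Axl (0.853), Gm2a (0.851) and S100a11 (0.815), and Fos to Patl1 (0.883), Cnst (0.876) and Fhl2 (0.873). Fosb was nearest to Flt1 (0.903), Tmem200a (0.898) and Hsd11b2 (0.860), Fosl2 to Sh3pxd2a (0.894), Tns3 (0.872) and Purb (0.870), Junb to Map1s (0.835), Dgkq (0.815) and 1700025G04Rik (0.796), and Myc to Mrrf (0.916), Mrps30 (0.880) and Slc25a53 (0.875). Among the members themselves, Ier3 and Dusp1 followed each other with r = 0.835 over arrays and 0.874 over the 12 group means, and Ier3 and Fosb with 0.842 and 0.831. Jun and Junb had r = 0.045 over arrays, 0.325 over group means and -0.807 within groups, where their replicate shifts run in opposite directions.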

How the data were processed

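RNA of 24 MEF samples was amplified, biotin-labelled and hybridized to Illumina Mouse-6 BeadChips. The deposited table holds intensity values that the authors normalized in GenomeStudio, on a linear scale, and the sorted values of the arrays agree within 4.47% at every rank. A second table, with 48 columns of signal and detection p-values whose names match no sample, was not used. Of 45281 probes, the platform annotation gives 34885 a single gene symbol, 18 several and 10378 none. The log2 intensities were fitted with limma 3.58.1 in R 4.3.3 as 12 group means over all 24 arrays (12 residual and 3.44 prior degrees of freedom), after probes under 233 on all arrays were left out. That level is the upper 0.01 tail of a normal distribution around the mode of the log2 values, 182 on the linear scale, and 58.5% of probes passed. P-values were adjusted by Benjamini-Hochberg over 26483 probes in each of 25 comparisons. Duplicates limit the precision, and arrays give no read depth. A lower bound ("at least N-fold") sets the dim group at the background level.

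The labels number the replicates 1 and 2 in every group. The differences between replicate 1 and replicate 2 correlated across all 66 pairs of groups (r = 0.136 to 0.765, median 0.377), all above 0.1, so the numbers were taken to pair the samples, and a fit with the replicate number as a block was run beside the main one.

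Named genes are the members, Siah1a, Siah2, up to 3 genes of each of 8 pathway and 6 marker lists that were called in most comparisons, and the 3 genes nearest to each member. Dusp10 and Mapk14 were named in addition, after their values were seen. The members and lists were chosen with earlier results of these data known. The fit was tested on simulated data. Alternatives changed the filter, the samples fitted, the background correction, the scaling, the weights, the prior, the threshold and the probes required, and left out each array.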

Additional observations from a re-analysis of the deposited data

Results flagged for a closer look

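For Egr1 under TM, both KO arrays lay below the untreated KO arrays (-0.46 on the log2 scale, limma adjusted p = 0.351) and both WT arrays above the untreated WT arrays (0.66, adjusted p = 0.187), and neither change passed. Chip and treatment cannot be told apart in these changes. The difference of the responses, -1.12 ± 0.34, did not pass either (adjusted p = 0.261, and 0.152 with the replicate block).

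For Atf3 under TM the fitted difference of the KO response (2.20) and the WT response (3.37) was -1.17 ± 0.22 (limma adjusted p = 0.0279). Untreated WT MEFs were not above background, so that the WT response is measured only as at least 8.56-fold, and 1 of 2 untreated KO arrays was above it. The size of the difference is therefore not measured. Under TM itself Atf3 had 981 and 1026 in KO MEFs and 1945 and 2045 in WT MEFs.

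Dusp6 under TM was called lower in KO MEFs (-2.65) and was not called in WT MEFs (0.94), a difference of -3.59 ± 0.59 (limma adjusted p = 0.0136). Groups of 2 arrays were too small for a search for outlying samples.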

How the results depend on the processing

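Counts below are pairs of member gene and comparison that were called. The replicate block moved the count from 1 to 7 for the stresses in WT and to 9 in KO MEFs, from 2 to 5 for KO against WT and from 1 to 6 for TM against TG and OGD against OD. It changed no other call of a member. An unadjusted p gave 5 in WT, 9 in KO, 5 for KO against WT, 2 for the difference of the responses (0 in the main fit) and 6 for TM against TG and OGD against OD. The fit of only the groups compared gave 0 in WT, 6 in KO, 6 for KO against WT and 2 for TM against TG and OGD against OD, and array weights gave 2 in WT, 6 in KO, 1 for the difference of the responses and 2 for TM against TG and OGD against OD.

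Leaving out 1 array gave 0 to 4 calls in WT, 1 to 4 in KO, 1 to 4 for KO against WT, 0 to 1 for the difference of the responses and 0 to 4 for the other pairs. The WT count was 0 without untreated WT replicate 2, 2 without untreated WT replicate 1 or a KO OGD array, 4 without replicate 1 of WT OGD and 3 without its replicate 2. The KO count was 4 without an untreated WT array, 3 without a WT OD array or KO OGD replicate 1, and 2 without KO OGD replicate 2. For KO against WT it was 4 without replicate 1 of KO OGD or WT OGD and 1 without any TM array. The difference of the responses gave 1 without a WT GD array. For the other pairs it was 0 without a KO TG or KO TM array, 4 without WT OD replicate 1, 3 without an untreated WT array or WT OGD replicate 1, and 2 without KO OGD replicate 1, WT OD replicate 2, a WT GD array or WT OGD replicate 2. The cause was not tested. Of the single values under the alternatives, 373 kept their side of the threshold, 61 newly passed, 28 no longer passed and 0 changed sign.

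The other filters, normexp, centring, the intensity trend, no fold threshold and all probes required left these counts within 1.5 times. With duplicates and values of Fos, Fosb and Myc near background, moderate changes may be missed.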
